A study of Mus musculus with 70 samples.

Results

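The 9 genes described here are textbook markers of the layers in which excitatory neurons of the cerebral cortex sit. Cux1, Cux2, Rorb and Pou3f2 mark upper layers, and Fezf2, Bcl11b, Tbr1, Foxp2 and Tle4 mark deep layers. They were chosen by name out of 50789 genes with counts, because loss of the repressor Capicua has been reported to thin the upper layers, and all 9 were found in the table. The study measured RNA in 3 genotypes of mouse: Cic-S-KO, without the short form of Capicua, Cic-L-KO, without its long form, and WT, wild-type littermates of the 2 lines pooled. Cortex and cerebellum were taken at 12 weeks of age and lung at postnatal day 6. There were 8 samples of each genotype in each tissue, except 7 in Cic-S-KO cortex and 7 in Cic-S-KO cerebellum, which made 70 samples in 9 groups. How the alleles were built, and from which line each WT animal came, is not given in the sources used here.

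Cortical excitatory neurons are born in an inside-out order, so that deep layers form first and upper layers last, and each layer keeps its own set of transcription factors. Fezf2 and Bcl11b (CTIP2) specify neurons that project below the cortex, Tbr1 and Tle4 mark neurons that project to the thalamus, and Foxp2 is a forkhead factor of the deepest layer. Cux1 and Cux2 are homeodomain factors of neurons that project within the cortex, Rorb is a nuclear receptor of the layer that receives thalamic input, and Pou3f2 (BRN2) acts in upper-layer neuron production. Several of these genes also mark other cells: Bcl11b and Foxp2 are expressed in spiny neurons of the striatum, and Foxp2 is also expressed in Purkinje cells of the cerebellum. Capicua is a DNA-binding repressor of many genes, among them those of the Etv family.

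Total counts ranged from 20730808 to 32548951 reads per sample in cortex, from 20440799 to 30464699 in cerebellum and from 17798655 to 35523037 in lung. No 2 samples of a group agreed within sampling noise. Nothing states whether samples of a group came from separate animals, so p-values measure the spread between these samples. The labels put lung in batch 1 and both brain tissues in batch 2, so tissue and age cannot be told apart from batch where lung is set beside brain. Levels are CPM, reads per 1e+06 reads of the library after TMM scaling within each tissue. A gene was called where its Benjamini-Hochberg adjusted p in edgeR's quasi-likelihood test was under 0.05 over all genes tested. Counts per gene hold both isoforms of Cic together and therefore do not check which isoform was lost. Cic averaged 161 CPM in WT cortex, 250 CPM in Cic-S-KO and 297 CPM in Cic-L-KO.

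The genes lie apart in the genome, and the sequences before the start sites of some of them can be read beside their levels. In GRCm38, Cux1 (chr5:136248135-136567490) and Cux2 (chr5:121856366-122050102) share a chromosome, as do Rorb (chr19:18930605-19111196) and Tle4 (chr19:14448150-14598051). Pou3f2 is at chr4:22482780-22488366, Fezf2 at chr14:12342094-12348189, Bcl11b at chr12:107910403-108003602, Tbr1 at chr2:61802930-61814114 and Foxp2 at chr6:14901349-15441977. All are protein-coding genes, and all but Tbr1 and Foxp2 lie on the minus strand. RefSeq (GRCm38.p6) gave 11 promoter windows of 300 bases for 8 of the 9 genes, all but Foxp2. The Capicua octamers TGAATGAA and TGAATGGA, searched on both strands, were in 0 of those 11 windows, against 2.47% of 32851 windows of all genes. The shorter core TGAATG, which both octamers contain, was in 0 of the 11 windows cut to the 250 bases before the start, against 10.9% of all such windows. Such a search says only that these letters were not in these windows. The 250 bases before the start of 3 members are shown, since Rorb and Pou3f2 were lower in Cic-L-KO cortex, Tle4 did not pass the test, and none of these windows touches an annotated exon. They are at chr19:19111197-19111446 for Rorb, chr4:22488367-22488616 for Pou3f2 and chr19:14598184-14598433 for Tle4, each read 5′ to 3′ on the minus strand. Capitals mark the CCAAT box (CCAAT, or ATTGG on the other strand), which occurred in 33.9% of all windows of this length.
Rorb: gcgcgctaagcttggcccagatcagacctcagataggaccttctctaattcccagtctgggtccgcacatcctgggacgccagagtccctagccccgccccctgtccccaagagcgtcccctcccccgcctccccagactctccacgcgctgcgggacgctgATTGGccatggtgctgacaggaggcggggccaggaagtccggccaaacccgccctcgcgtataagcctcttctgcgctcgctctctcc
Pou3f2: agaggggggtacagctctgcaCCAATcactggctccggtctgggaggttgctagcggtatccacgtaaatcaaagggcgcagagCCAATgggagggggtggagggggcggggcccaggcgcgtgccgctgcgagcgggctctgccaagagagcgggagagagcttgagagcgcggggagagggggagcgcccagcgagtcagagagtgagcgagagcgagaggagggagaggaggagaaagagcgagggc
Tle4: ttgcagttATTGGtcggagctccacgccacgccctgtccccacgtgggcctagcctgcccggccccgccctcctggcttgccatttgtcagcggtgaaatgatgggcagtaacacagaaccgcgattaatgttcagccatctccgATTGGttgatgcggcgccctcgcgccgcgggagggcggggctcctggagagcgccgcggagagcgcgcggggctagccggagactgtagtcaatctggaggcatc
Rorb had 1 such box, Pou3f2 had 2 and Tle4 had 2. These are the 3 of the members' 11 windows that hold one. A second Rorb window that touches no exon had 0 and is not shown, and the 7 windows that touch an exon also had 0.

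In WT cortex all 9 genes were expressed, and their order was set by Tbr1 at the top and Foxp2 at the bottom. Per kilobase of exon, which allows genes to be compared, Tbr1 stood at 29.8 ± 2.0 CPM per kb (SD, n = 8). Cux2 (12.1 ± 1.4), Fezf2 (11.6 ± 1.6), Bcl11b (10.9 ± 1.3) and Tle4 (10.6 ± 1.1) followed, and neighbours among these 4 did not differ by more than the sum of their SDs. Pou3f2 came next at 7.60 ± 0.82 CPM per kb, then Cux1 at 5.56 ± 0.37 and Rorb at 4.65 ± 0.55, whose gap was also within the sum of their SDs. Foxp2 was lowest at 1.13 ± 0.14 CPM per kb. The genes were thus measured on 448 (Foxp2) to 4010 (Tbr1) counts per WT cortex sample on average. Cux1 counts include a transcript of the same locus that encodes another protein, CASP.

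Loss of the long isoform went with lower levels of 5 layer genes in the cortex, 3 from the upper layers (Cux1, Rorb, Pou3f2) and 2 from the deep layers (Tbr1, Foxp2), and with a higher level of 1, the upper-layer gene Cux2. Fezf2, Bcl11b and Tle4 did not pass the test. The 6 called genes of 9 stood beside 43.2% of all 16974 genes tested in cortex, with 21.9% lower and 21.4% higher. The median log2 fold change of the 9 genes was -0.20, against 0.01 over all genes tested. In bulk tissue, fewer cells of a type and less RNA per cell cannot be told apart.

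Among the upper-layer genes, Cux1 ranged from 104 CPM (median 109) to 127 CPM in WT cortex and from 92.0 CPM (median 97.6) to 100.5 CPM in Cic-L-KO cortex. All 8 Cic-L-KO samples lay below all 8 WT samples, a separation of ranges found in 13.2% of all genes tested. Cux1 fell by 0.20 on the log2 scale (SE 0.040, adjusted p = 1.33e-04). Pou3f2 ranged from 38.6 CPM (median 40.4) to 51.5 CPM in WT and from 31.2 CPM (median 34.3) to 37.1 CPM in Cic-L-KO. Its groups did not overlap either, and it fell by 0.32 (SE 0.066, adjusted p = 2.57e-04). Rorb ranged from 41.5 CPM (median 51.3) to 60.0 CPM in WT and from 29.6 CPM (median 37.2) to 43.8 CPM in Cic-L-KO. Its groups met at their edges: 7 of 8 Cic-L-KO samples were below every WT sample. Rorb fell by 0.47 (SE 0.084, adjusted p = 6.55e-05).

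Cux2 moved the other way from its close relative Cux1. It ranged from 103 CPM (median 122) to 142 CPM in WT and from 126 CPM (median 140) to 147 CPM in Cic-L-KO, and the groups overlapped, with 3 of 8 Cic-L-KO samples above every WT sample. The log2 difference was 0.18 (SE 0.063, adjusted p = 0.0240). That call was lost without a filter on low counts (adjusted p = 0.0607) and after an adjustment for GC content (log2 difference 0.12, adjusted p = 0.130).

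Among the deep-layer genes, Tbr1 had the smallest p of the 9. It ranged from 151 CPM (median 159) to 181 CPM in WT and from 106 CPM (median 118) to 137 CPM in Cic-L-KO, with no overlap. Tbr1 fell by 0.45 (SE 0.048, adjusted p = 6.67e-09), a fall by 26.7%. Foxp2 ranged from 14.8 CPM (median 18.5) to 21.3 CPM in WT and from 10.02 CPM (median 13.3) to 14.9 CPM in Cic-L-KO. Here 7 of 8 Cic-L-KO samples were below every WT sample, and the fall was 30.4% in size (log2 difference -0.52, SE 0.099, adjusted p = 1.09e-04).

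The other deep-layer genes stayed within overlapping ranges. Fezf2 ranged from 28.6 CPM (median 36.4) to 42.6 CPM in WT and from 24.7 CPM (median 31.9) to 40.8 CPM in Cic-L-KO, with a log2 difference of -0.15 and a 95% interval from -0.40 to 0.10. Bcl11b ranged from 73.6 CPM (median 90.8) to 99.1 CPM in WT and from 75.8 CPM (median 87.7) to 97.2 CPM in Cic-L-KO, with an interval from -0.19 to 0.15. Tle4, a corepressor of thalamus-projecting neurons, had an interval from -0.19 to 0.04 and lay between 49.8 CPM (median 59.7) and 72.2 CPM in WT and between 52.5 CPM (median 56.8) and 63.6 CPM in Cic-L-KO. These intervals do not show that the levels were alike, and that of Fezf2 includes falls as large as those of Cux1 and Pou3f2.

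**Figure D1:**
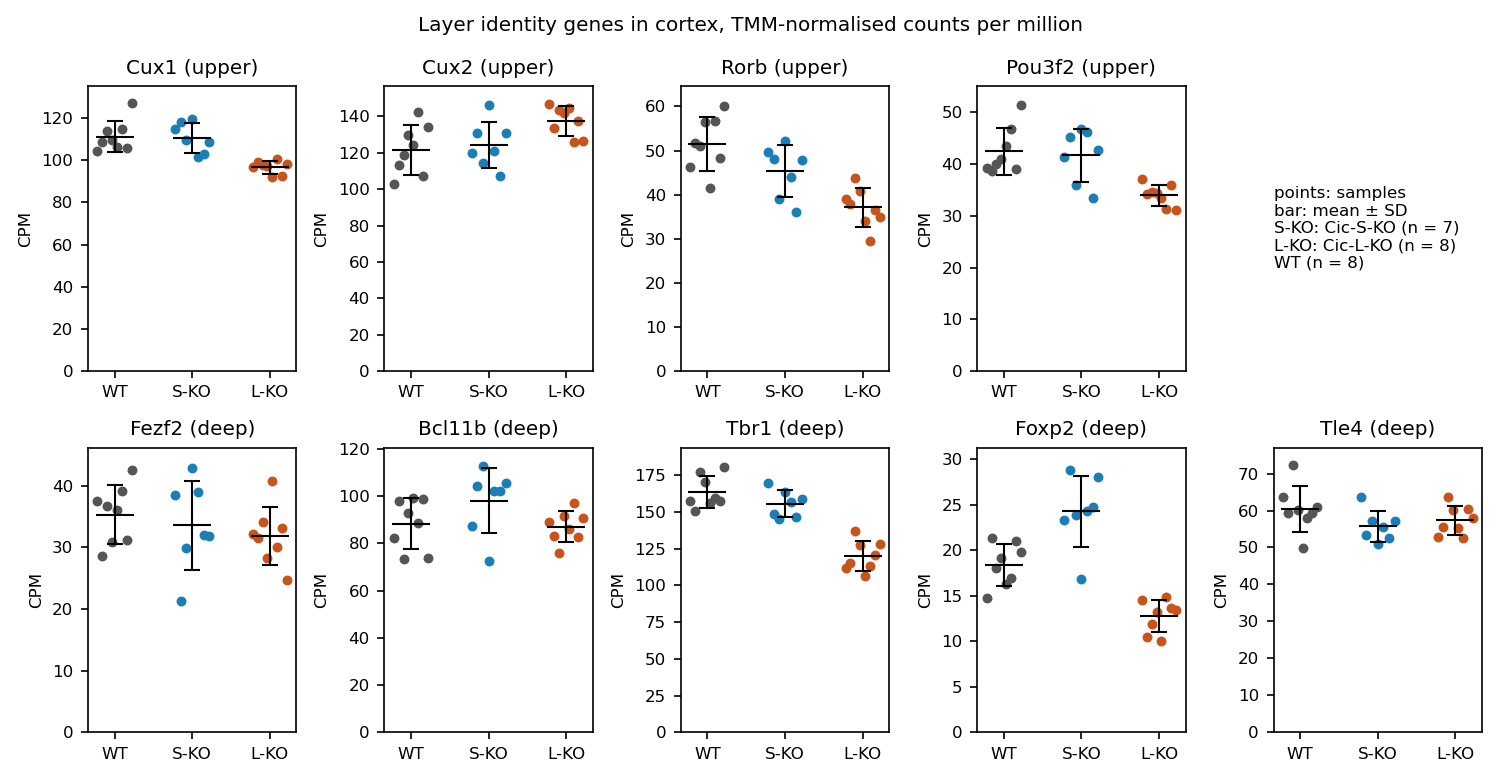
TMM-normalised CPM of the 9 layer genes in each cortex sample (y axis, starting at 0, its own scale per gene) by genotype (x axis), with points for samples and bars for mean ± SD. Cux1, Pou3f2 and Tbr1 of Cic-L-KO lie wholly below WT, Cux2 of Cic-L-KO lies toward the top of its range, and Foxp2 is high in Cic-S-KO and low in Cic-L-KO.

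Loss of the short isoform left 8 of the 9 genes uncalled in cortex, and the remaining gene, Foxp2, was higher. The single call of 9 stood beside 6.53% of all genes tested, with 2.83% higher and 3.7% lower. Foxp2 ranged from 16.8 CPM (median 24.3) to 28.8 CPM in Cic-S-KO, and 6 of 7 samples were above every WT sample. The log2 difference was 0.40 (SE 0.099, adjusted p = 0.0168), the opposite sign to that in Cic-L-KO. Leaving out single cortex samples gave log2 differences from 0.36 to 0.48, all called.

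The upper-layer genes of Cic-S-KO cortex lay across the WT ranges. Cux1 ranged from 102 CPM (median 110) to 120 CPM and Cux2 from 107 CPM (median 121) to 146 CPM. Pou3f2 ranged from 33.4 CPM (median 42.7) to 46.8 CPM, with a log2 difference of -0.03 and an interval from -0.16 to 0.11. Rorb ranged from 36.0 CPM (median 47.9) to 52.3 CPM, and its log2 difference of -0.18 (interval -0.36 to -0.01) did not pass the adjusted test (adjusted p = 0.203). Among the deep-layer genes, Bcl11b ranged from 72.4 CPM (median 102) to 113 CPM, with 5 of 7 samples above every WT sample and 1 below all of them. Its log2 difference was 0.15 (interval -0.02 to 0.32, adjusted p = 0.296). Tbr1 ranged from 145 CPM (median 157) to 170 CPM, Fezf2 from 21.2 CPM (median 32.0) to 42.9 CPM and Tle4 from 50.9 CPM (median 55.5) to 63.5 CPM, and none of these passed.

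Set directly against each other, the knockouts differed in 5 of the 9 genes, all higher in Cic-S-KO, beside 33.9% of all genes called and 17.4% called higher. Foxp2 differed most, by 0.92 on the log2 scale (SE 0.10, adjusted p = 3.63e-08), a level 1.90 times that of Cic-L-KO with no overlap of the ranges. Tbr1 differed by 0.38 (adjusted p = 4.07e-07) and Cux1 by 0.19 (adjusted p = 3.77e-04), also without overlap, which 10.6% of all genes showed. Pou3f2 differed by 0.29 (adjusted p = 0.00112) and Rorb by 0.29 (adjusted p = 0.0114), with overlapping ranges. Cux2 was 0.15 lower in Cic-S-KO and Bcl11b 0.17 higher, and neither passed (adjusted p = 0.0858 and 0.118). Without replicate 4 of Cic-S-KO both passed, Cux2 at -0.19 (adjusted p = 0.0172) and Bcl11b at 0.23 (adjusted p = 0.0131). In the fit of those 2 genotypes alone Cux2 passed as well (adjusted p = 0.0417).

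The balance of upper against deep genes depended on how the genes were averaged. The mean log2 CPM of the 4 upper genes minus that of the 5 deep genes was 0.39 ± 0.11 (SD, n = 8) in WT cortex. It was 0.29 ± 0.18 (SD, n = 7) with Cic-S-KO and 0.43 ± 0.08 (SD, n = 8) with Cic-L-KO. The difference of Cic-L-KO from WT was 0.04, smaller than the SD within either group. When medians over the genes replaced means, the balance was 0.33 ± 0.17 (SD, n = 8) in WT and 0.07 ± 0.08 (SD, n = 8) with Cic-L-KO, and the difference was -0.26, larger than the SD within either group. Neither version was tested. By medians of the log2 fold changes in Cic-L-KO, the upper genes stood at -0.26 and the deep genes at -0.15.

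**Figure D2:**
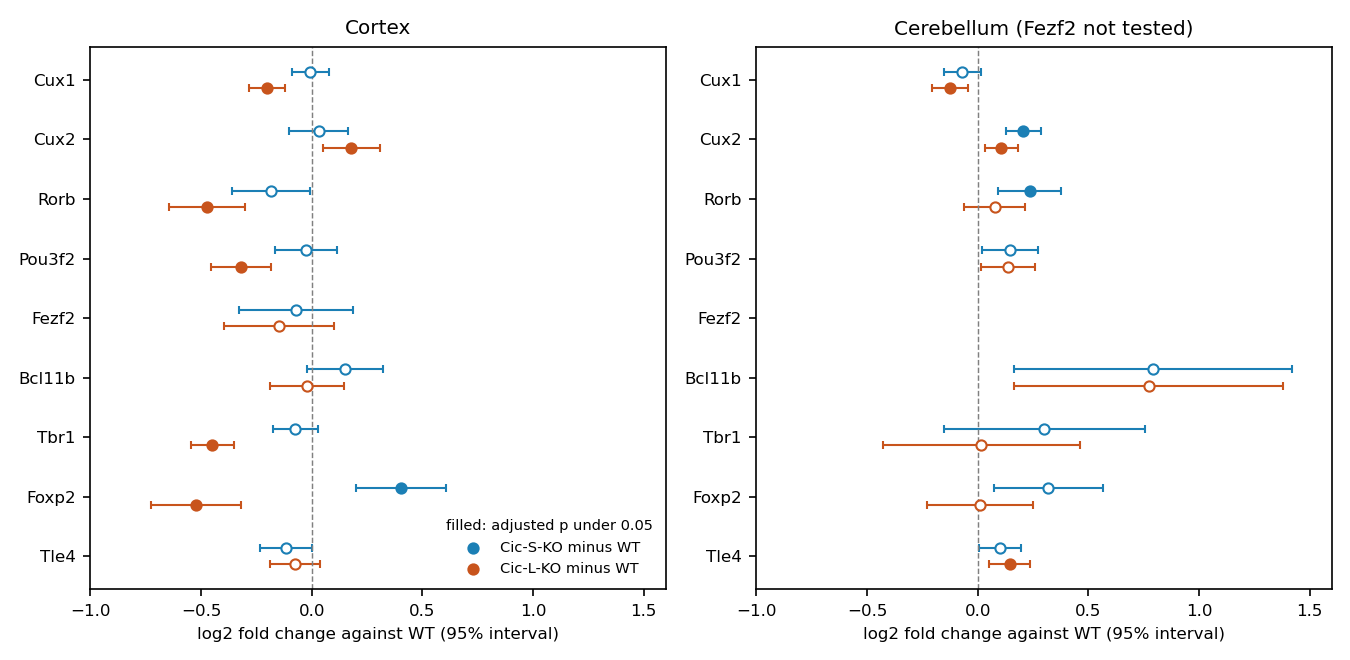
Log2 fold change against WT with its 95% interval (x axis) for each layer gene (y axis) in cortex (left) and cerebellum (right), with filled points for adjusted p under 0.05. In cortex the 5 filled points left of 0 and 1 right of 0 in Cic-L-KO contrast with the single filled point of Cic-S-KO at Foxp2. In cerebellum the points of Cux1 lie left of 0 and those of every other gene tested lie right of 0, most of them unfilled.

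General markers of excitatory neurons moved with the falls in Cic-L-KO cortex. The summed level of 6 such markers ranged from 7151 to 8593 CPM in WT, from 6655 to 8399 CPM in Cic-S-KO and from 5762 to 6604 CPM in Cic-L-KO, where every sample was below every WT sample. Of the 6 markers, 4 were lower in Cic-L-KO, among them Camk2a (log2 difference -0.53) and Slc17a7 (-0.38), 0 were higher, and none was at 0. Markers of inhibitory neurons summed to 968 to 1089 CPM in WT and 1128 to 1301 CPM in Cic-L-KO, with 3 of 7 higher (Sst, Pvalb, Slc32a1) and 1 lower (Vip). Beside these counts stand 43.2% of all genes called, 21.4% higher and 21.9% lower. With the log2 excitatory sum as a covariate, 3 layer genes were called in Cic-L-KO against WT, beside 13.7% of all genes in that fit: Cux2 (0.51, adjusted p = 0.00138) and Foxp2 (-0.78, adjusted p = 0.00900) in the same directions as without it, and Bcl11b (-0.43, adjusted p = 0.0405). The differences of Cux1 (-0.02), Rorb (0.01), Pou3f2 (0.04) and Tbr1 (-0.15) then did not pass. Since the sums of the groups did not overlap, the excitatory sum and the genotype cannot be told apart in that fit.

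Some markers of other cell types were also called in Cic-L-KO cortex. All 3 hippocampal dentate gyrus markers tested were higher (Dsp, Zbtb20 and Trpc6), with sums of 103 to 140 CPM in WT and 125 to 198 CPM in Cic-L-KO. Zbtb20 made up most of that sum, at 106 CPM in WT cortex against 12.4 CPM for Trpc6 and 0.832 CPM for Dsp. The same sum was 188 to 238 CPM in WT cerebellum and 230 to 285 CPM in WT lung, so it is not particular to the dentate gyrus. Of 6 endothelial markers 3 were higher, with sums of 165 to 211 CPM in WT and 181 to 232 CPM in Cic-L-KO. Of 6 astrocyte markers 2 were higher (4099 to 5313 CPM and 4508 to 5829 CPM), as were 2 of 6 microglial markers (311 to 397 CPM and 341 to 397 CPM) and 1 of 5 thalamic markers. Over all genes, 43.2% were called in this comparison, 21.4% higher and 21.9% lower. None of these marker lists had a lower call, their summed ranges overlapped, and their part in the layer gene results was not tested.

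The excitatory sum was itself lower in Cic-L-KO (median 6043 CPM, against 7903 CPM in WT). As a share of that sum, several of the 9 genes were higher in Cic-L-KO, and Cux2 stood apart. Cux2 made up 1.33% (median 1.54%) to 1.83% of it in WT and 2.05% (median 2.26%) to 2.52% in Cic-L-KO, with no overlap. Tle4 made up 0.615% (median 0.760%) to 0.901% in WT and 0.896% (median 0.944%) to 1.02% in Cic-L-KO, where 7 of 8 samples were above every WT sample. Bcl11b also had 7 of 8 Cic-L-KO samples above every WT sample on this scale, and Cux1 and Fezf2 had 6 of 8 each. Tbr1, by contrast, overlapped widely on this scale, at 1.93% to 2.21% in WT and 1.72% to 2.08% in Cic-L-KO. Rorb (0 of 8 Cic-L-KO samples outside the WT range), Pou3f2 (2 of 8 above it) and Foxp2 (3 of 8 below it) also overlapped. Camk2a was the largest part of the sum, at 4123 CPM in WT and 2858 CPM in Cic-L-KO. Slc17a7 went from 1621 to 1249 CPM, Nrgn from 1701 to 1579 CPM and Neurod6 from 81.4 to 84.8 CPM. A gene with an unchanged level also rises as a share where the sum falls. The same counts of samples were not made over all genes, so those given here are not a result particular to the layer genes. These shares are a description with no test.

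Striatal spiny neuron markers varied between cortex samples and moved with Foxp2 and Bcl11b. Their sum over 8 genes ranged from 210 CPM (median 331) to 605 CPM in WT, from 222 CPM (median 632) to 727 CPM in Cic-S-KO and from 209 CPM (median 353) to 624 CPM in Cic-L-KO. None of the 8 markers was called in either knockout against WT, and none was at 0. The Cic-S-KO sample with the lowest sum, replicate 4 at 222 CPM, also had the lowest Foxp2 (16.8 CPM) and the lowest Bcl11b (72.4 CPM) of that group. Its Fezf2 (42.9 CPM) was the highest of the group. With the log2 striatal sum as a covariate, chosen after seeing the data, Foxp2 in Cic-S-KO against WT was 0.24 (adjusted p = 0.0709) and no longer passed, which left 0 of 9 genes called by edgeR, beside 2.69% of all genes. In Cic-L-KO the same covariate left Foxp2 at -0.52 (adjusted p = 1.96e-07). Between the knockouts, Fezf2 was called with this covariate (0.26, adjusted p = 0.00712) and not without it. That fit called 6 of the 9 genes, beside 30.4% of all genes. Oligodendrocyte markers Mag and Mog, 2 of 6, were also higher in Cic-S-KO cortex, beside 2.83% of all genes called higher. The part of these cells in the result was not tested.

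**Figure D3:**
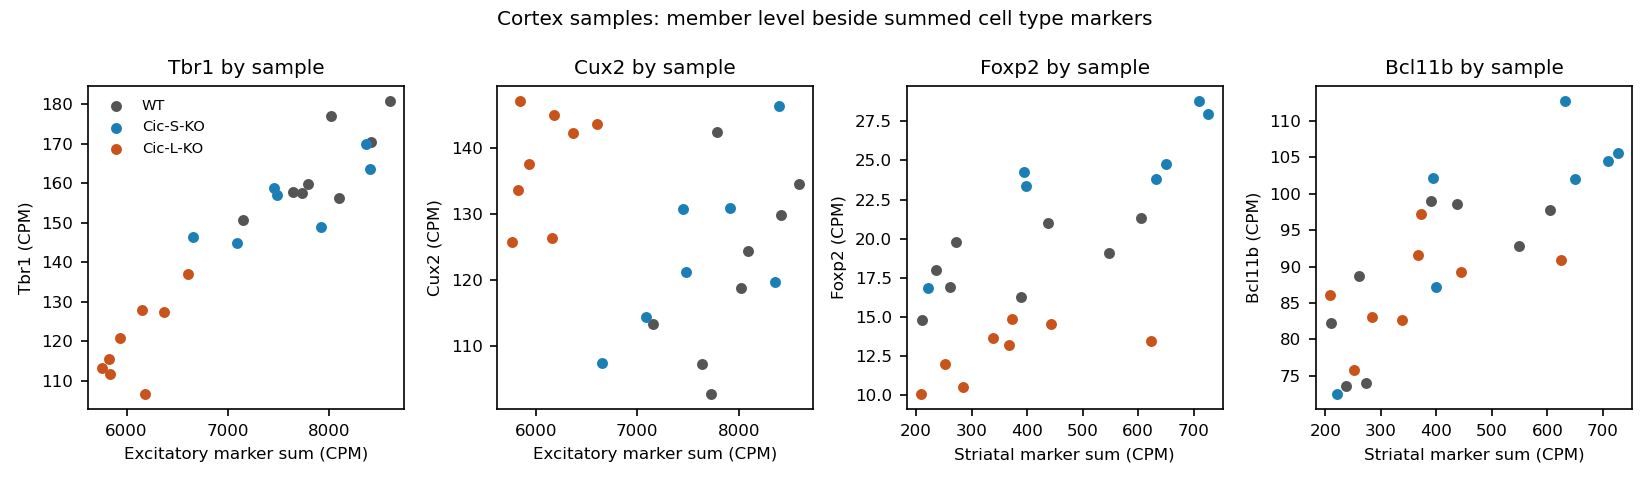
CPM of 4 layer genes (y axes) against the summed CPM of excitatory or striatal markers (x axes) in each cortex sample, coloured by genotype, with axes that do not start at 0. Tbr1 is higher where the excitatory sum is higher, Cux2 of Cic-L-KO is high at the lowest sums, and Foxp2 and Bcl11b are higher where the striatal sum is higher, while the highest Foxp2 of Cic-L-KO is 14.9 CPM.

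The remaining genes of the layer lists changed in both directions in Cic-L-KO cortex. Of 4 other layer 4 genes, 3 were lower and 0 higher, with a median log2 fold change of -0.67. Rspo1, a secreted activator of Wnt signalling, fell from 12.2 ± 2.7 CPM (SD, n = 8) in WT to 1.76 ± 0.47 CPM (n = 8), by 2.81 on the log2 scale (SE 0.15, adjusted p = 2.04e-14). The potassium channel gene Kcnh5 fell by 1.04 (adjusted p = 1.19e-08) and the nuclear receptor gene Rora by 0.31 (adjusted p = 1.07e-06). The ranges of all 3 lay below WT, and ranges were apart in either direction for 13.2% of all genes tested. Over all genes, 43.2% were called in this comparison and 21.9% were called lower.

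Of 7 other layer 2/3 genes, 1 rose and 2 fell (median -0.29). Mdga1, a cell surface protein of upper-layer neurons, rose from 28.9 ± 5.5 CPM to 74.3 ± 6.2 CPM (log2 difference 1.36, adjusted p = 9.63e-10). Calb1, a calcium-binding protein, fell by 0.67 and the netrin receptor gene Unc5d by 0.29. Of 8 other layer 5 genes, 3 rose and 3 fell (median 0.13), with the POU factor Pou3f1 at 0.71, the LIM cofactor Ldb2 at 0.60, Deptor at -0.50 and Parm1 at -0.46. Of 11 other layer 6 and 6b genes, 3 rose and 4 fell (median -0.09), with the neurotensin receptor Ntsr1 at 0.67, Syt6 at 0.60, Rprm at -0.88 and the nuclear receptor Nr4a2 at -0.48. Of 8 transcription factors of several layers, 0 rose and 4 fell (Neurod2, Lmo4, Bhlhe22 and Mef2c, from -0.38 to -0.22). Beside these counts stands the same 43.2% of all genes called in this comparison.

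In Cic-S-KO cortex, where 6.53% of all genes were called, the same lists held the following calls. Layer 2/3 had 2 higher, Otof (0.84, adjusted p = 0.0122) and Mdga1 (0.39, adjusted p = 0.0373), and 1 lower, Lhx2 (-0.19). Layer 4 had Rora lower (-0.20) and layer 5 had Deptor (-0.36) and Parm1 (-0.19) lower. Layer 6 had Ntsr1 higher (0.34) and Hs3st4 (-0.19) and Ccn2 (-0.28) lower, and among the shared transcription factors Bhlhe22 (-0.29) and Mef2c (-0.22) were lower. Both knockouts were compared with the same WT samples. Mdga1 and Ntsr1 were higher in each knockout than in WT, and both were also higher in Cic-L-KO than in Cic-S-KO (log2 differences of Cic-S-KO minus Cic-L-KO of -0.97 and -0.33, adjusted p = 3.55e-07 and 0.00268).

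**Figure D4:**
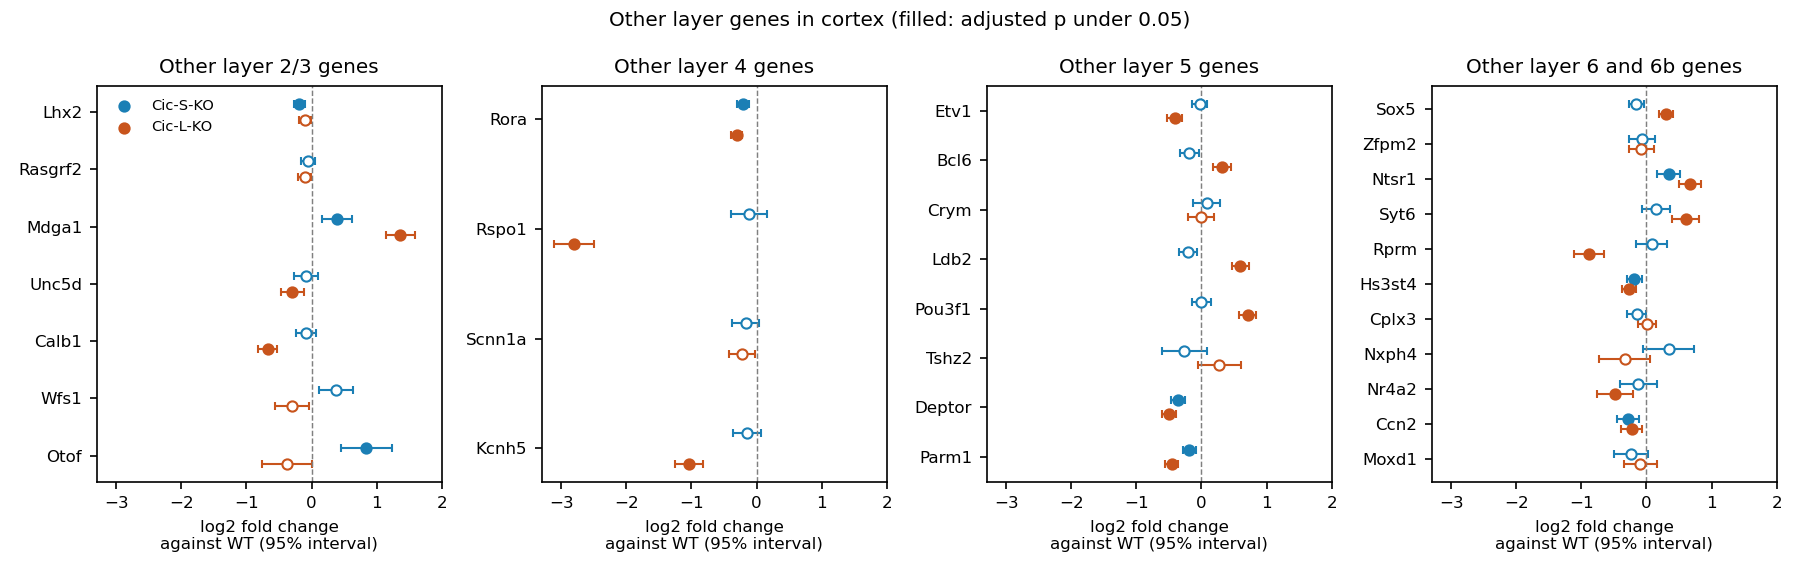
Log2 fold change against WT with its 95% interval (x axis) for the other genes of each layer list in cortex (y axis), with filled points for adjusted p under 0.05. Rspo1 and Kcnh5 lie far left in Cic-L-KO and near 0 in Cic-S-KO, while the layer 5 and 6 lists have filled Cic-L-KO points on both sides of 0.

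The cerebellum, which has no such layers, served as the contrast tissue. In WT, 8 of the 9 genes were higher in cortex than in cerebellum and Cux1 was lower, beside 73.5% of 18032 genes called in that comparison (35.4% higher, 38.2% lower). Fezf2 had 0 counts in all 8 WT cerebellum samples and averaged 35.3 CPM in WT cortex, at least 278-fold higher against a floor of 3 counts per sample. Tbr1 (164 against 0.809 CPM, log2 difference 7.73, SE 0.10) and Bcl11b (88.4 against 1.92 CPM, log2 difference 5.60, SE 0.21) came next. Rorb (2.06), Pou3f2 (1.36), Cux2 (1.22) and Tle4 (1.01) were higher by smaller factors, and Foxp2 (0.49) was higher with overlapping ranges. With both brain tissues scaled together, Cux1 was at 157 CPM in cerebellum and 115 CPM in cortex (log2 difference -0.45, SE 0.041). Ranges of CPM scaled within each tissue were apart for 8 of the 9 genes and for 46% of all genes. The levels of Fezf2, Tbr1 and Bcl11b above are on that within-tissue scale, while the log2 differences come from a fit of both tissues.

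**Figure D5:**
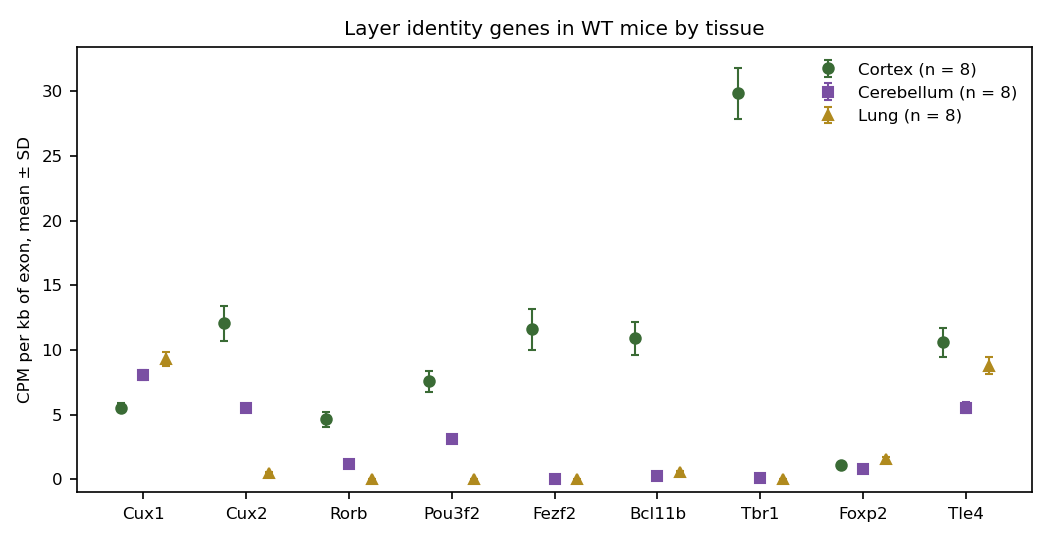
Mean CPM per kb of exon ± SD in WT cortex, cerebellum and lung (y axis, n = 8 each) for the 9 layer genes (x axis), with TMM scaling within each tissue. Tbr1, Fezf2 and Bcl11b are near 0 outside cortex, while Cux1, Foxp2 and Tle4 are present in all 3 tissues.

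In cerebellum the knockouts were compared with WT in the same way. With Cic-L-KO, 3 of 8 genes tested in cerebellum were called, beside 21.5% of all genes there (10.9% higher, 10.6% lower). Cux1 was lower (-0.12, SE 0.040, adjusted p = 0.0250), at 132 CPM (median 152) to 154 CPM against 143 CPM (median 165) to 168 CPM in WT. Cux2 was higher (0.11, SE 0.037, adjusted p = 0.0394), at 55.5 CPM (median 59.1) to 65.1 CPM against 52.7 CPM (median 55.7) to 59.2 CPM in WT. The signs of these were as in cortex, and the ranges overlapped. Tle4 was higher (0.14, SE 0.045, adjusted p = 0.0230), at 33.7 CPM (median 34.9) to 36.6 CPM against 29.2 CPM (median 31.5) to 36.5 CPM in WT. Without a filter on low counts Cux2 (adjusted p = 0.128) and Tle4 (adjusted p = 0.0761) no longer passed, nor did Cux2 after adjustment for GC content (0.06, adjusted p = 0.217).

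With Cic-S-KO, 2 of 8 were called in cerebellum, both higher, beside 8.23% of all genes and 4.34% higher. Cux2 ranged from 60.4 CPM (median 62.3) to 68.9 CPM, above every WT sample, which 1.24% of all genes tested showed in either direction (log2 difference 0.21, SE 0.039, adjusted p = 0.00177). Rorb ranged from 13.8 CPM (median 15.7) to 16.7 CPM against 11.4 CPM (median 13.4) to 14.6 CPM in WT (0.24, SE 0.069, adjusted p = 0.0335), with overlap, and did not pass without a filter on low counts (adjusted p = 0.0788). Bcl11b, at 1.59 to 7.98 CPM in Cic-S-KO, 2.12 to 5.26 CPM in Cic-L-KO and 1.29 to 3.35 CPM in WT, did not pass in edgeR (adjusted p = 0.105 and 0.0634), while DESeq2 called it in Cic-L-KO (adjusted p = 0.0240). Between the knockouts, 0 of 8 genes were called by edgeR or by DESeq2, beside 12.4% of all genes, and 3 had an unadjusted p under 0.05 in edgeR.

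Some cerebellar cell markers were called as well. Granule neuron markers summed to 4705 to 5854 CPM in WT, 3237 to 4878 CPM with Cic-S-KO and 3706 to 5010 CPM with Cic-L-KO, with 4 of 7 and 3 of 7 lower. Inhibitory neuron markers summed to 1518 to 1847 CPM in WT, 1864 to 2289 CPM with Cic-S-KO and 1908 to 2262 CPM with Cic-L-KO, above every WT sample, with 4 of 5 tested higher in each knockout. Purkinje cell markers, 2 of 6 and 1 of 6 higher, overlapped in their sums. Endothelial markers, 0 of 6 and 4 of 6 higher, summed to 129 to 171 CPM in WT and 178 to 213 CPM with Cic-L-KO. Over all genes in cerebellum, 8.23% were called with Cic-S-KO (4.34% higher) and 21.5% with Cic-L-KO (10.9% higher, 10.6% lower). The part of these cells in the cerebellar results was not tested.

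Whether a shift differed between the tissues was tested by an interaction over 46 brain samples, each taken as independent. For Cic-L-KO, 5 of the 9 genes had a lower shift in cortex than in cerebellum, beside 23% of all genes called and 11.5% called lower. They were Rorb (-0.55, SE 0.11, adjusted p = 1.78e-04), Pou3f2 (-0.46, SE 0.090, adjusted p = 1.47e-04), Foxp2 (-0.53, SE 0.16, adjusted p = 0.0126), Tle4 (-0.22, SE 0.074, adjusted p = 0.0255) and Bcl11b (-0.79, SE 0.29, adjusted p = 0.0443). For Rorb, Pou3f2 and Foxp2 this set a fall in cortex beside no call in cerebellum, where the log2 differences were 0.08, 0.14 and 0.01. Cerebellar Pou3f2 was called higher after GC adjustment (0.19, adjusted p = 0.0235) and in the fit of WT and Cic-L-KO alone (0.14, adjusted p = 0.0444). For Tle4 and Bcl11b the cortical differences themselves had not passed. Those of Bcl11b were -0.02 in cortex and 0.77 in cerebellum, where it averaged 1.92 CPM in WT and 3.28 CPM in Cic-L-KO. The Bcl11b interaction was lost without a filter on low counts (adjusted p = 0.0945), with 32 to 87 counts per WT cerebellum sample behind it. Tbr1 (-0.45, adjusted p = 0.0713) did not pass in edgeR, with 14 to 28 counts per WT cerebellum sample behind it. DESeq2 called this Tbr1 interaction (-0.47, adjusted p = 0.0341). For Cux1 (-0.08) and Cux2 (0.07) no difference between the tissues was called.

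For Cic-S-KO, Rorb alone of the 9 was called (-0.42, SE 0.11, adjusted p = 0.0229), beside 4.5% of all genes and 2.5% lower. Its shift was -0.18 in cortex and 0.24 in cerebellum. Foxp2, the gene called in Cic-S-KO cortex, had an interaction of 0.08 with an interval from -0.25 to 0.41, and its cerebellar difference of 0.32 did not pass (adjusted p = 0.0971). Fezf2 gave no interpretable interaction, since it had 0 counts in WT cerebellum.

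In lung, 5 genes had enough counts to be tested (Cux1, Cux2, Bcl11b, Foxp2 and Tle4). Of these, 0 were called by edgeR or by DESeq2 in Cic-S-KO against WT, in Cic-L-KO against WT or between the knockouts, beside 15.7%, 4.89% and 12.2% of all genes. Unadjusted p under 0.05 in edgeR was reached by 1, 0 and 0 of them, the 1 being Cux1 in Cic-S-KO (-0.10, interval -0.19 to -0.01). Foxp2, which is expressed in lung epithelium, ranged from 22.99 CPM (median 25.7) to 30.8 CPM in WT lung, from 20.6 CPM (median 27.7) to 29.6 CPM in Cic-S-KO and from 24.8 CPM (median 27.9) to 31.5 CPM in Cic-L-KO. Rorb, Pou3f2, Fezf2 and Tbr1 had at most 52 counts in any lung sample.

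Across cortex samples within a genotype, the upper-layer genes varied together, while the deep-layer genes split. Over deviations of log2 CPM from the genotype mean in 23 samples, all 6 pairs of upper genes had a positive Pearson r (0.50 to 0.80, median 0.62). The 10 pairs of deep genes ranged from -0.63 (Fezf2 with Foxp2) to 0.59 (Tbr1 with Tle4), with 5 positive. Bcl11b was negatively related to Tbr1 (-0.60) and Fezf2 (-0.62) and positively to Foxp2 (0.55). The 20 pairs of an upper with a deep gene ranged from -0.55 (Rorb with Bcl11b) to 0.63 (Rorb with Tbr1), with a median of 0.02 and 11 positive. Tbr1 was positively related to each upper gene (0.29 to 0.63) and Bcl11b negatively to each (-0.55 to -0.39). These values share libraries and depth and are a description.

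Among 14140 genes with a mean of at least 1 CPM, those most alike to each layer gene over the same deviations were as follows. For the upper genes, Cux1 was most like Camta2 (r = 0.75), Ppfia3 and Rcan2, and Cux2 most like Cabp1 (0.86), Brsk2 and Pou3f2. Rorb was most like Fam168a (0.81), 4833413G10Rik and Rbfox3, and Pou3f2 most like Zfp651 (0.84), Dusp7 and Znfx1. For the deep genes, Fezf2 was most like Nfix (0.89) and Sowahb, and Bcl11b most like Tiam1 (0.92), Doc2b and Six3os1. Tbr1 was most like Kcnv1 (0.91), Ipcef1 and Fbxw7, Foxp2 most like Prkar2b (0.85), Ndrg4 and Arpp21, and Tle4 most like Msra (0.77), Fam155a and Nxph3.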

How the data were processed

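RNA was isolated with a miRNeasy kit from flash-frozen tissue and sequenced as polyA-selected libraries, per the labels' protocols. What the authors deposited is a table of raw gene counts, whole numbers without normalization, of 70 libraries. Per the submitters' processing notes, STAR 2.7 and GRCm38.p6 were used. The counting program, the annotation and whether strand was used are not given in the sources used here, so reads of overlapping antisense genes cannot be told apart.

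Groups came from the labels. Identifiers were matched without version to GENCODE M21 (GRCm38), which matched 50725 of 50789. Counts were tested with edgeR 4.0.16 in R 4.3.3: filterByExpr on genotype, TMM, a robust quasi-likelihood fit of all 3 genotypes of a tissue (16974 genes in cortex, 16643 in cerebellum, 16695 in lung), and 46 samples and 18032 genes for the interactions and for WT cortex against cerebellum. Standard errors came from the F statistic, with intervals at 95%. Adjusted p-values are by Benjamini-Hochberg over all genes tested, with a threshold of 0.05. Marker sums are summed CPM.

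Named were the 9 layer genes, Cic, up to 4 called genes of each other layer list with the largest change per cortex comparison, and the 3 genes most alike to each member. Marker genes were named outside that rule. The layer genes and lists were chosen with earlier results of these data known. Pou3f3 is not analysed here, and some listed or similar genes are not reported here.

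Alternatives were DESeq2 1.42.0, RLE size factors, a non-robust fit, no filter or at least 50 counts on average, the 2 compared genotypes only, adjustment in 20 bins of GC content, Y-linked expression, excitatory and striatal marker sums as covariates, the replicate number as a block, and leaving out each cortex sample.

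On simulated counts in the design of Cic-L-KO against WT cortex (16743 genes), edgeR recovered 100 of 100 genes changed by 1 on the log2 scale and 70 of 100 changed by 0.3. Only those genes were changed, drawn from the higher-expressed ones, whereas 43.2% of genes were called in the real comparison. The recovery therefore does not give the power in these data.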

Additional observations from a re-analysis of the deposited data

Results flagged for a closer look

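Of 84 groups of layer gene values, 11 held a sample far from the others. The limit used would flag about 1 in 20, or 4.2 groups, of independent normal values. That rate does not hold here, since some groups are counts near 0 and groups share libraries. In lung, replicate 5 of Cic-S-KO stood apart for 3 genes that are nearly absent there: Pou3f2 at 0.581 CPM against at most 0.124 CPM in the others, Fezf2 at 0.332 CPM against at most 0.124 CPM, and Tbr1 at 1.44 CPM against at most 0.265 CPM. None of these 3 genes was tested in lung. Single counts set the values of Pou3f2 in WT replicate 5 (0.0369 CPM) and Fezf2 in WT replicate 8 (0.0439 CPM), where the other WT lung samples were at 0. Tle4 was low in lung Cic-S-KO replicate 8, at 39.0 CPM against 48.6 to 56.8 CPM.

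In cerebellum, replicate 4 of Cic-S-KO had the highest Bcl11b, at 7.98 CPM against 1.59 to 4.21 CPM, and the highest Fezf2, at 0.109 CPM against at most 0.0345 CPM. Replicate 1 of WT cerebellum had high Bcl11b, at 3.35 CPM against 1.29 to 2.15 CPM, and low Cux1, at 143 CPM against 158 to 168 CPM. In cortex, Cux1 was high in WT replicate 8, at 127 CPM against 104 to 115 CPM.

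A change that differed between cortex and cerebellum by the interaction test was found for Rorb with Cic-S-KO (-0.42). With Cic-L-KO it was found for Rorb (-0.55), Pou3f2 (-0.46), Bcl11b (-0.79), Foxp2 (-0.53) and Tle4 (-0.22). That of Bcl11b was lost without a filter on low counts (adjusted p = 0.0945).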

How the results depend on the processing

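Over 14 settings other than leaving out samples, 864 of 912 values of single layer genes kept their side of the threshold and, where called, their direction. A call was lost by 28 and gained by 13, and 7 called values changed sign. So did 25 values of genes that were not called, which are not counted as changes. DESeq2, RLE size factors, a non-robust fit, a filter at 50 counts on average and Y-linked expression changed no call of a layer gene in cortex. Leaving out each cortex sample gave 1 to 1 calls for Cic-S-KO against WT, 6 to 6 for Cic-L-KO against WT and 5 to 7 between the knockouts.

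With the excitatory sum as covariate, 3 genes were called in Cic-L-KO against WT and 3 between the knockouts, and of the called genes Rorb (0.0066 and -0.12) and Pou3f2 (0.040 and -0.012) changed sign in both. So did uncalled Fezf2 (0.18 and -0.20), and Tle4 against WT (0.049). With the striatal sum, 0 were called in Cic-S-KO against WT. With both sums, 0 were called in either knockout against WT and 1 between them, and of the called genes Rorb (0.025 and -0.15) and, between the knockouts, Tbr1 (-0.041) changed sign. So did uncalled Tle4 in Cic-L-KO (0.29) and Cux1 (0.019), Pou3f2 (0.055) and Fezf2 (0.11) in Cic-S-KO. Both striatal fits were chosen after seeing the data. By medians over the genes, the upper minus deep balance differed from WT by 0.018 for Cic-S-KO and by -0.26 for Cic-L-KO.

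In cerebellum, no filter gave 1 call in each knockout against WT, the 2 genotypes alone gave 5 in Cic-L-KO, and GC adjustment gave 1 between the knockouts. In lung, no filter gave 1 call in Cic-S-KO against WT and 1 between the knockouts.

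Shared replicate numbers were not taken as pairs, since not every pair met the limit: cortex and cerebellum samples of 1 number correlated over 0.1 in 7 of 8 WT, 7 of 7 Cic-S-KO and 2 of 8 Cic-L-KO pairs, and 3, 6 and 1 correlated best with their own number. With the replicate block, cortex counts were 1, 6 and 5, as without it, the cerebellum had 1 call in each knockout against WT (by title number, Rorb at adjusted p = 0.115 in Cic-S-KO and Cux1 at 0.0587 and Cux2 at 0.0780 in Cic-L-KO did not pass), lung Cic-S-KO had 1 by title number, and Bcl11b lost its interaction in Cic-L-KO (-0.78, adjusted p = 0.132), leaving 4 of 9.

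Over all genes, the 1108 called by edgeR in Cic-S-KO against WT cortex became 732 without filter, 449 with GC adjustment, 654 in the 2 genotypes alone, 627 with the title number as replicate block, 655 with the excitatory sum, 457 with the striatal sum and 459 without Cic-S-KO replicate 6, the lowest of the fits without 1 sample. For Cic-L-KO against WT, 7338 became 2325 with the excitatory sum and 832 with both. Between the knockouts, 5757 became 3043 and 1151. Title number as replicate block changed 1370 to 591 in Cic-S-KO cerebellum and 817 to 1285 in Cic-L-KO lung, and no filter changed 812 to 446 in the Cic-S-KO interaction. The cause of these changes was not tested.

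Precision in cerebellum is limited by low counts for Tbr1 (14 to 36) and Bcl11b (32 to 219).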
